A study of Homo sapiens with 6 samples.

Results

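The baseline transcriptome of CAL27 cells, an established human line from a squamous cell carcinoma of the tongue, was read from the 3 libraries of cells that received a control plasmid. These are 3 of the 6 libraries of the study, chosen by their label alone, and the 3 libraries of cells overexpressing RBM24, an RNA-binding protein, were not used. The groups compared by the study shared the cell line, and the labels give no time after transfection, no plasmid name and no untransfected cells. What is described is therefore the state of transfected cells, and it was not stated whether the 3 libraries came from separate cultures, so the spread given here may be technical. All 17019 protein-coding genes of the deposited count table were placed by their level.

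Levels are the authors' FPKM (fragments divided by gene length and by library depth), given for library 1, library 2 and library 3 in that order. A gene was called expressed at 1 FPKM or more in every library, and silent under 0.1 FPKM in every library. By that rule 10070 protein-coding genes (59.2%) were expressed, 3783 (22.2%) were silent and 3166 lay between. Genes absent from both tables had no entry in the tables used here and were not called silent. A rank is the place by mean FPKM among the 17019 genes, with 1 the highest. With 1 group there is no test, and 2 genes are said to differ in level only where their ranges over the 3 libraries do not overlap.

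Squamous epithelium is built from basal cells, which sit on a basement membrane through hemidesmosomes, divide and carry the keratin pair KRT5 and KRT14 under the transcription factor TP63. As such cells move up they switch to suprabasal keratins and then cross-link a cornified envelope, while desmosomes and cadherins hold neighbours together. Keratinocytes are also a source of alarm cytokines, among them interleukin-1 and the CXCL chemokines that attract neutrophils. Carcinomas of this epithelium often amplify EGFR or CCND1 and lose CDKN2A or SMAD4.

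The authors' gene length matched the union of all exons of a gene, which lowers the level of genes with long alternative exons. Levels per kilobase of the longest protein-coding transcript, a measure added after the data were seen, are given below where they change a class, an order or the reading of a value. They moved 14 of 383 genes named by the rule to another class.

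The upstream sequences of 5 strongly expressed chemokine genes are shown. All 5 were highest in library 1, as were 10 of the 13 expressed chemokines. They include CXCL1, CXCL8 and CCL20, the 3 highest chemokines. CXCL10, at a mean of 71.6 FPKM, is not shown, although it stood above CXCL2 and CXCL3 at means of 48.7 and 20.8 FPKM. Each sequence shown is the 100 bases before the RefSeq start site in GRCh38.p14, 5′ to 3′ on the gene's strand. GGAATTTCC, a sequence of the kind bound by NF-kB, and TATAAA are in capitals. The motifs were chosen after the sequences had been read. CXCL8 lies at chr4:73740469-73740568 on the plus strand, CXCL1 at chr4:73869293-73869392 on the plus strand, CXCL2 at chr4:74099196-74099295 on the minus strand, CXCL3 at chr4:74038690-74038789 on the minus strand and CCL20 at chr2:227813742-227813841 on the plus strand.
CXCL8: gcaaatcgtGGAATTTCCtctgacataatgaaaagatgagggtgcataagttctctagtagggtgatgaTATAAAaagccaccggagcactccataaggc
CXCL1: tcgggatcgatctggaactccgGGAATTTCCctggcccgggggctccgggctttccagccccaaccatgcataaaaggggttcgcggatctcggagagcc
CXCL2: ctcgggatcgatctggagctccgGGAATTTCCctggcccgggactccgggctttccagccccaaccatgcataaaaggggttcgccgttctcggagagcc
CXCL3: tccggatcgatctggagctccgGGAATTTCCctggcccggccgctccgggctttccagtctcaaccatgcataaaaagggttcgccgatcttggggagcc
CCL20: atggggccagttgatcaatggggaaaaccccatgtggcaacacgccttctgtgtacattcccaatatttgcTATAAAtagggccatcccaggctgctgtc
The GGAATTTCC of CXCL8 begins 91 bases before the start site, that of CXCL1 and of CXCL3 at 78 bases and that of CXCL2 at 77 bases. TATAAA begins 31 bases before the start site of CXCL8 and 29 bases before that of CCL20. Of the 35116 RefSeq windows of 300 bases (250 before to 50 after a start site), 0.461% hold GGAATTTCC on either strand and 11.5% hold TATAAA on either strand. GGAATTTCC was chosen from 4 of the sequences shown, 3 of them of close paralogs, so its count among chemokines is no evidence about them and is given as a description. It stood in the windows of 6 of 8 expressed chemokines with a window, of 1 of 7 between the classes (CXCL5) and of 1 of 7 silent (CXCL6). A match describes the letters only.

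The 3 libraries held 56105482, 55139782 and 62156648 counts, of which 97.3% to 97.8% fell on protein-coding genes. They were close but not equal. Library 1 stood somewhat apart, with a chi-square per gene of 17.4 and 19.9 against libraries 2 and 3, and 9.54 between those 2, so that no library was a copy of another. Spearman's rho across the expressed genes, which are not independent replicates, was 0.995 to 0.997. The median coefficient of variation of an expressed gene was 5.77%. Only 5 expressed genes (0.0497%) had a highest library at least 2 times the lowest, all with library 1 highest. Of all expressed genes, 2464 (24.5%) were highest in library 1. A hand-chosen set of the members below, all highest in library 1, is also given without it. Some members outside that set, such as IL17C and CSF2, had a wider range between libraries than SDC4, which is in it. What made library 1 differ was not tested.

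**Figure D1:**
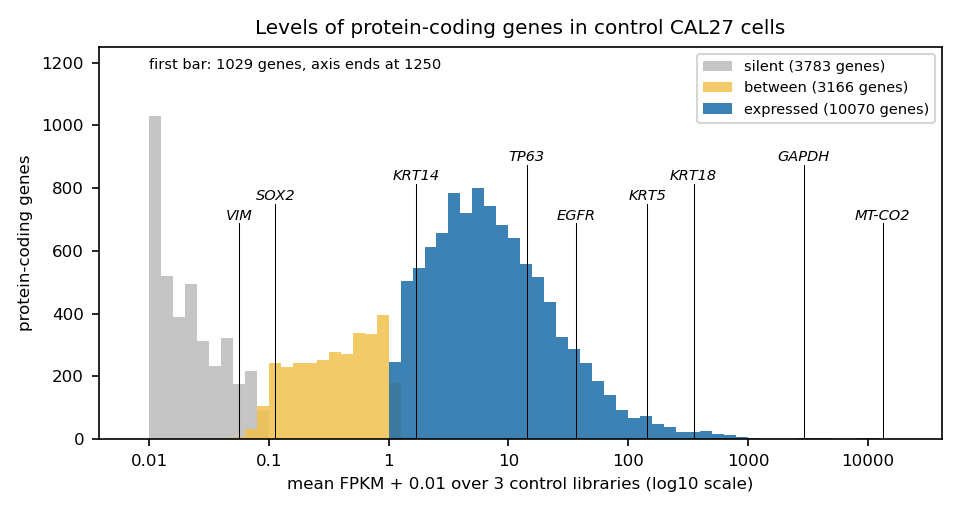
Number of protein-coding genes (y axis) by mean FPKM + 0.01 over the 3 control libraries (x axis, log10 scale), coloured by class. Lines mark VIM, SOX2, KRT14, TP63, EGFR, KRT5, KRT18, GAPDH and MT-CO2. Expressed genes form a peak below 10 FPKM, VIM stands among the silent genes and SOX2 at the low end of the genes between, and MT-CO2 lies at the far right.

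The most abundant messages came from the mitochondrial genome, iron storage, glycolysis and the ribosome. MT-CO2, a subunit of cytochrome c oxidase, ranked 1 at 12519.6, 14004.5 and 13418.1 FPKM. Of the 20 highest genes 12 were mitochondrial-encoded, the others being FTH1 and FTL (the ferritin chains), GAPDH (a glycolytic enzyme), TMSB10 (an actin-binding peptide), MT2A (a metallothionein) and the ribosomal proteins RPS12, RPS2 and RPL7A. FTH1 ranked 8 at 4754.98, 5058.00 and 4640.95 FPKM, and GAPDH ranked 13 at 2759.46, 3097.29 and 2905.21 FPKM. All 13 mitochondrial-encoded genes, all 79 ribosomal protein genes and all 20 listed glycolysis genes were expressed, beside 59.2% of all genes. The 100 most abundant genes held 46.5% ± 0.68 (SD, n = 3) of the protein-coding FPKM, and 28.4% when mitochondrial-encoded genes were left out. Means of 100 FPKM or more were reached by 347 genes (2.04%).

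Calcium-binding S100 proteins, many of them clustered in the epidermal region of chromosome 1, included members above the highest keratin, S100A9 and S100A6. S100A9, which pairs with S100A8 in the inflammatory protein calprotectin, ranked 24 at 940.93, 826.80 and 679.89 FPKM. S100A8 stood at 124.62, 94.05 and 69.25 FPKM and was named after its values were seen, as was S100A7, at 51.58, 36.73 and 26.51 FPKM. In each of the 3 genes library 1 was highest and library 3 lowest. Without library 1 the mean of S100A9 was 753 FPKM in place of 816, that of S100A8 81.7 in place of 96.0, and that of S100A7 31.6 in place of 38.3. S100A6, S100A11, S100A2 and S100A10 had means of 610 ± 43.4, 389 ± 22.8, 323 ± 39.0 and 160 ± 8.51 FPKM (SD, n = 3).

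Keratins, the intermediate filaments of epithelia, showed a mix of basal and simple-epithelial members. Of 54 keratin genes, 39 were listed and 15 had no entry in the tables used here. Of those listed 12 were expressed (30.8%, beside 59.2% of all genes), 8 lay between and 19 were silent. KRT18, the type I keratin of simple epithelia, was the highest at 325.60, 375.16 and 355.25 FPKM, and its partner KRT8 followed at 184.58, 216.74 and 202.43 FPKM. KRT5 (chr12:52514575-52520687 in GRCh38), the type II keratin of basal cells, came next at 136.55, 151.01 and 143.85 FPKM. The ranges of these 3 genes did not overlap, and their order was the same per kilobase of the longest transcript (means of 631, 563 and 233). KRT14, the usual partner of KRT5, stood only at 1.72, 1.89 and 1.45 FPKM and ranked 9171, behind KRT15, another type I basal keratin, at 12.37, 13.62 and 13.52 FPKM. The type I message of the basal pair was thus far below its type II partner in every library.

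Among stress keratins, which appear in wounded or hyperproliferative epithelium, KRT17 led with 21.1 ± 2.17 FPKM (SD, n = 3). KRT6B stood at 10.88, 10.05 and 7.15 FPKM (mean 9.36, and 8.60 without library 1) and KRT6A at 8.37, 8.45 and 8.10 FPKM. These ranges overlapped, the sole overlap among the 11 neighbouring pairs of expressed keratins. KRT6A, KRT6B and KRT6C are near-identical copies, and so in part are KRT14, KRT16 and KRT17, so that the counting could move reads among them. KRT16 had a mean of 2.84 FPKM and KRT6C of 0.16 FPKM.

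Of the suprabasal keratins listed, 2 of 10 were expressed: KRT80 at 40.62, 45.18 and 47.04 FPKM, and KRT10, the keratin of keratinising layers, at 16.35, 16.73 and 15.89 FPKM. KRT13, the keratin of the moist oral lining, had 208, 225 and 189 counts and 1.17, 1.30 and 0.97 FPKM, which placed it between the classes since library 3 was under 1 FPKM; per kilobase of the longest transcript it was expressed at a mean of 1.95. KRT4, its partner in that lining, was silent, as were KRT3, KRT9, KRT76 and KRT79. KRT7 of glandular ducts had a mean of 5.92 FPKM, KRT19 of 0.52 FPKM, and KRT20 of gut epithelium 1, 1 and 0 counts. None of 16 listed hair and root sheath keratins was expressed (beside 59.2% of all genes), with KRT86 at 0.93 FPKM the highest of them.

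**Figure D2:**
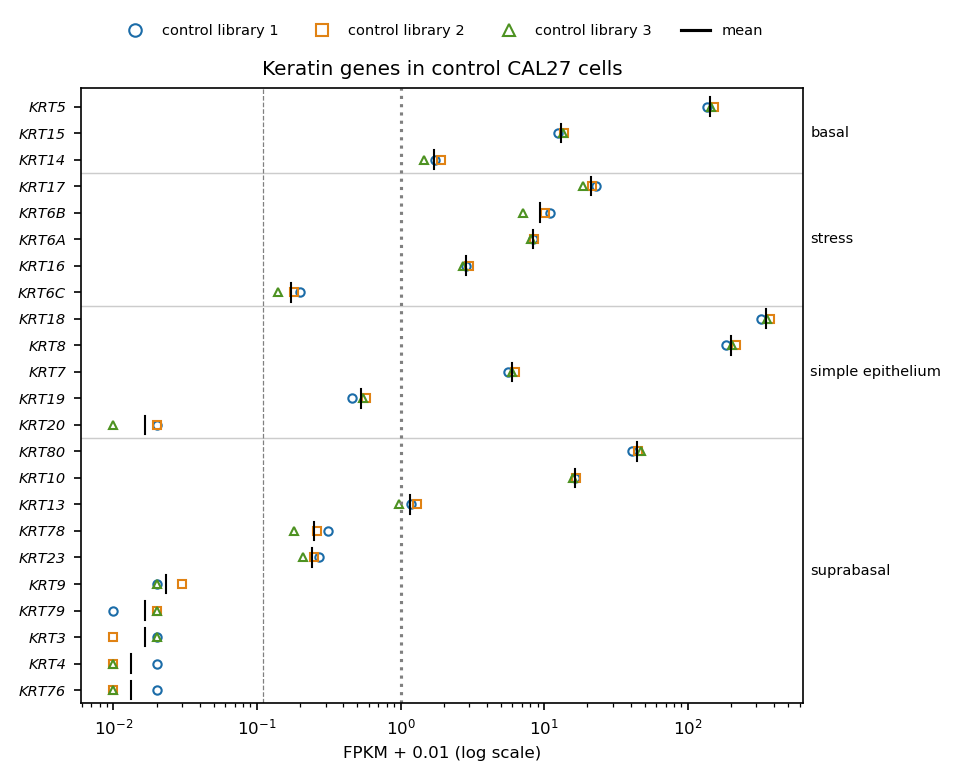
FPKM + 0.01 (x axis, log scale) of keratin genes in the 3 control libraries, 1 symbol per library with the mean as a bar, grouped by class. All listed genes of the classes shown are drawn, and hair keratins are left out. The dotted line marks 1 FPKM and the dashed line 0.1 FPKM; KRT18, KRT8 and KRT5 lie above 100 FPKM while KRT14 lies just right of the dotted line.

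Transcription factors of squamous epithelium were mostly present, with 18 of 25 listed expressed beside 59.2% of all genes. EHF and ELF3, ETS factors of epithelia, stood at 92.7 ± 3.31 and 19.0 ± 1.13 FPKM (SD, n = 3), and SOX15 at 57.6 ± 5.35. KLF5, a factor of proliferating epithelium, and KLF4, a factor of barrier formation, had means of 24.0 and 18.1 FPKM. TP63 (chr3:189631416-189897279 in GRCh38), the master factor of the basal layer, was read at 6673, 5881 and 7478 counts and 14.56, 13.27 and 14.91 FPKM, rank 2795. SOX2 (chr3:181711924-181714436), which lies on the same arm and is often gained together with TP63 in squamous cancers, had 16, 14 and 21 counts and a mean of 0.10 FPKM, so that it fell between the classes. GRHL3, a factor of barrier formation, and FOXN1, of follicle and thymic epithelium, were silent.

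Genes of the cornified envelope, the product of terminal differentiation, were largely off. Of 28 listed members 8 were expressed (28.6%, beside 59.2% of all genes). A further 13 were silent, beside 22.2% of all genes, and 10 more genes had no entry. SFN, the 14-3-3 sigma protein of epithelial cells, stood at 279.12, 301.27 and 273.70 FPKM, and ANXA1, a phospholipid-binding annexin, at 112.81, 107.24 and 112.14 FPKM. CALML3, CSTA and PPL, the last a plakin of the envelope, had means of 19.9, 19.8 and 10.7 FPKM. IVL (involucrin), FLG and FLG2 (filaggrins) and the small proline-rich proteins SPRR1A and SPRR2A were silent.

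Mesenchymal genes gave a split picture, with 8 of 19 listed expressed (42.1%, beside 59.2% of all genes). VIM (chr10:17228259-17237593 in GRCh38), the intermediate filament of mesenchymal cells, was silent in all 3 libraries, with 12, 20 and 10 counts and 0.04, 0.07 and 0.03 FPKM, rank 13601. Per kilobase of its longest transcript its mean was 0.11, which put it between the classes. SPARC, a matrix glycoprotein, stood at 51.66, 56.34 and 56.57 FPKM, and TGFBI, a secreted matrix protein, at 26.2 ± 1.97 FPKM (SD, n = 3). SNAI2 and TWIST1, repressors of epithelial genes, had means of 6.38 and 2.50 FPKM. ZEB2, another such repressor, and the fibrillar collagen genes COL1A2 and COL3A1 were silent, with ZEB2 and COL1A2 lying between the classes under the longest-transcript measure.

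Markers of other cell types were few, with 3 of 53 listed expressed (5.66%, beside 59.2% of all genes). The count was 8 with FPKM rescaled in the manner of TPM and 9 at 1 CPM or more, which both added COL1A1, FOXA2, PDGFRB and PMEL. In bulk RNA, fewer cells of a type and less RNA per cell cannot be told apart. PTPRC, the pan-leukocyte CD45, had 3, 0 and 0 counts. The summed level of the 9 listed immune markers was 11.65, 12.53 and 11.05 FPKM, nearly all from CD14, a co-receptor for lipopolysaccharide, at 10.56, 11.17 and 9.95 FPKM. Fibroblast markers summed to 1.57 to 1.94 FPKM over 9 genes, and endothelial markers to 1.44 to 1.81 FPKM over 7 genes, there mostly from CDH5 (VE-cadherin) at 1.31, 1.61 and 1.71 FPKM with PECAM1, VWF and KDR silent. FOXA1, a pioneer factor of glandular tissue, had a mean of 2.60 FPKM. All 6 listed muscle and all 6 listed neural markers missed the threshold. Of the squamous markers TP63, KRT5, KRT14, KRT6A, KRT17, DSG3, SFN, TRIM29 and COL17A1, the marker set used for squamous epithelium, each was expressed in every library, KRT14 as the lowest at a mean of 1.69 FPKM. Differentiation and lineage genes of the lists above went the other way, with IVL, FLG, SPRR1A, SPRR2A, GRHL3 and KRT4 silent and SOX2, KRT13 and KRT6C between the classes.

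Adhesion genes were expressed in 77 of 127 listed cases (60.6%, beside 59.2% of all genes), with a median of 2.00 FPKM beside 2.21 FPKM over all protein-coding genes. The most abundant was SDC4, a heparan sulfate proteoglycan of focal adhesions, at 634.58, 547.95 and 464.97 FPKM, rank 46, and rank 50 at a mean of 506 FPKM without library 1. ICAM1, the leukocyte adhesion ligand, was at 189.67, 187.42 and 163.71 FPKM. EPCAM, an adhesion molecule of simple epithelia and carcinomas, was at 114.38, 107.38 and 110.63 FPKM, and CD44, the hyaluronan receptor, at 78.4 ± 1.10 (SD, n = 3). CD44 varied little between the libraries, whereas SDC4 was highest in library 1 and lowest in library 3.

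Hemidesmosome and laminin genes had the largest expressed share of the adhesion lists, 14 of 17 (82.4%, beside 59.2% of all genes). LAMB3, a chain of the basement membrane laminin-332, stood at a mean of 48.5 FPKM, ITGB4 and ITGA6, which pair as its receptor, at 41.8 and 24.9, and COL17A1, the transmembrane collagen of the hemidesmosome, at 20.42, 19.50 and 21.34 FPKM in the 3 libraries. ITGA3, the other laminin-332 receptor chain, was the highest integrin at 52.57, 58.76 and 62.41 FPKM. Integrins as a whole were expressed in 11 of 25 cases (44.0%, beside 59.2% of all genes), and the silent ones included ITGA7, ITGA9, ITGA10 and ITGA11.

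Desmosome genes were expressed in 8 of 11 cases (72.7%, beside 59.2% of all genes). PERP, a tetraspan membrane protein of desmosomes, had 57.4 ± 1.82 FPKM, JUP (plakoglobin) 52.8 ± 3.02 and PKP3 (plakophilin) 33.0 ± 2.75 (SD, n = 3). DSP (desmoplakin), the plakin that ties keratins to the junction, and DSG2 lay lower, at 8.54 and 7.35 FPKM. DSC1, of the upper epidermis, was silent. CDH1 (chr16:68737225-68835548 in GRCh38), E-cadherin, was read at 28.76, 29.73 and 32.59 FPKM, rank 1344, and CDH3, P-cadherin of basal cells, at 32.25, 33.32 and 35.46 FPKM. The ranges of these cadherins overlapped. CTNNA1 and CTNNB1, the catenins that bind cadherins, had means of 39.2 and 16.6 FPKM.

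CTNND1, the p120 catenin, was listed at a mean of 0.45 FPKM, which should not be read as its level. It had 432, 403 and 453 counts, while the readthrough entry TMX2-CTNND1 held 33968 counts over the 3 libraries. It was named after its values were seen. Among tight junction genes CLDN1 stood at 90.97, 80.90 and 85.36 FPKM, with F11R (the JAM-A protein) at 37.2 and CLDN4 at 20.5. CLDN2 of leaky epithelia, CLDN6 and CLDN8 were silent. Gap junction genes were expressed in 6 of 13 cases (46.2%, beside 59.2% of all genes). GJB2 (connexin 26) was among them at 9.59 ± 0.97 FPKM (SD, n = 3), and GJB6 (connexin 30) was silent.

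**Figure D3:**
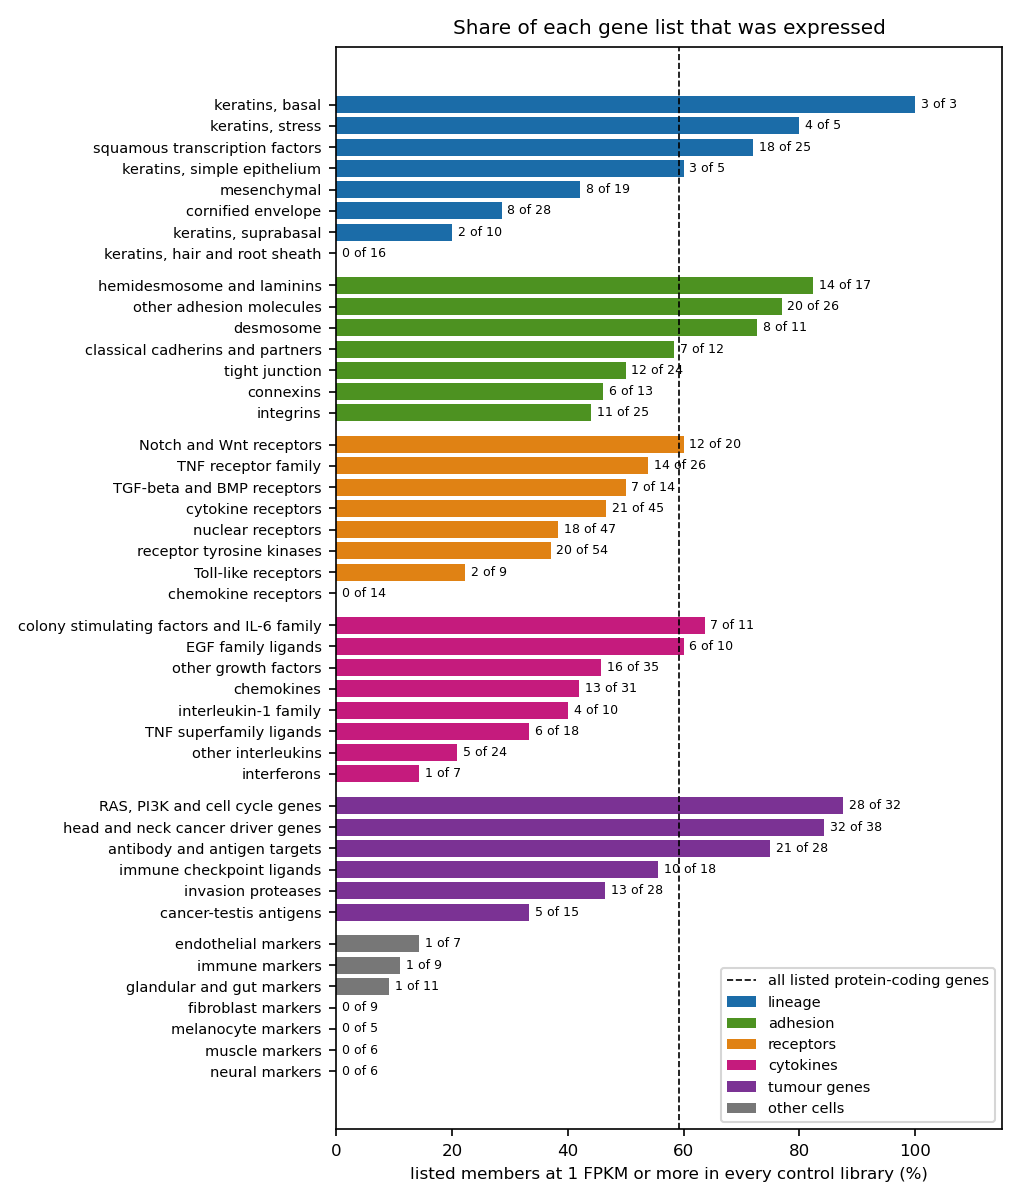
Share of the listed members of each gene list at 1 FPKM or more in every control library (x axis, percent), with the counts beside each bar, coloured by domain. The dashed line is the 59.2% of all protein-coding genes; basal keratins, hemidesmosome genes and cancer driver genes lie to its right, chemokine receptors and hair keratins have no expressed member.

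Receptors were expressed in 94 of 229 listed cases (41.0%, beside 59.2% of all genes) with a median of 0.39 FPKM, and none ranked among the 100 most abundant genes. Among 54 listed receptor tyrosine kinases 20 were expressed (37.0%, beside 59.2% of all genes) and 20 were silent (beside 22.2% of all genes). EPHA2, an ephrin receptor, stood highest at 50.78, 54.68 and 52.88 FPKM. DDR1, a collagen receptor, was at 36.41, 40.87 and 40.27 FPKM. EGFR (chr7:55019021-55211628 in GRCh38), the receptor for epidermal growth factor, had 28183, 25524 and 33167 counts and 36.77, 34.43 and 39.54 FPKM, rank 1099. AXL, the receptor for GAS6, was at 32.66, 37.79 and 37.57 FPKM, and MET, the hepatocyte growth factor receptor, at 27.48, 26.29 and 28.85 FPKM. The ranges of DDR1 and EGFR overlapped, as did those of EGFR and AXL, while MET lay below AXL in every library.

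This order depended on the gene length used. Per kilobase of the longest protein-coding transcript, DDR1 had a mean of 85.4 and stood above EPHA2 at 54.6 and EGFR at 46.6. The next kinases, RYK at 9.23, EPHB4 at 6.93 and PTK7 at 6.42 FPKM, lay far below MET. ERBB2 (HER2) had a mean of 5.13 FPKM and ERBB3, its partner, 2.48, while ERBB4 was silent. Of the fibroblast growth factor receptors FGFR4 and FGFR3 were expressed at 3.22 and 2.90 FPKM and FGFR1, at a mean of 0.03 FPKM, was silent (0.09 with the longest transcript, between the classes). The others expressed, from EPHB2 at 5.02 down to LMTK3 at 1.77 FPKM, were MST1R, LMTK2, EPHA1, STYK1, IGF1R and TYRO3, and in 10 of 19 neighbouring pairs of the whole order the ranges overlapped. KIT, FLT1, KDR, PDGFRA, TEK and TIE1 of blood vessels, stem cells and stroma were silent.

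Ligands of the EGF family were read beside their receptor, with 6 of 10 listed expressed and none silent. AREG (amphiregulin) was the highest at 55.58, 49.64 and 51.53 FPKM, followed by EREG (epiregulin) at 35.56, 30.88 and 33.62 FPKM and HBEGF at 25.19, 23.06 and 20.48 FPKM. The ranges of these 3 did not overlap. All 6 expressed ligands were highest in library 1, beside 24.5% of all expressed genes. TGFA stood at 8.27 FPKM and BTC at 3.79 FPKM. EGF, named after its value was seen, lay between the classes at 0.78 FPKM.

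**Figure D4:**
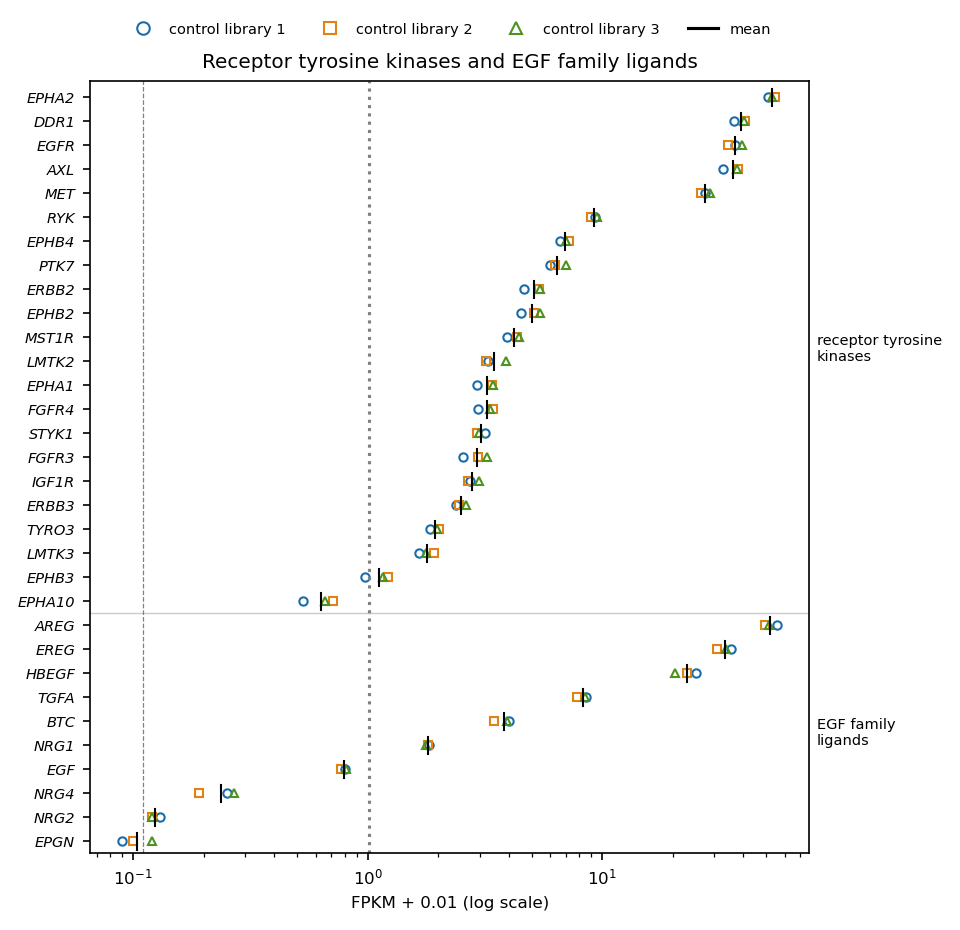
FPKM + 0.01 (x axis, log scale) of the receptor tyrosine kinases with the highest levels and of the EGF family ligands in the 3 control libraries, 1 symbol per library with the mean as a bar. The dotted line marks 1 FPKM and the dashed line 0.1 FPKM; 5 kinases, from EPHA2 to MET, lie above 10 FPKM with a gap to RYK.

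Cytokine receptors were expressed in 21 of 45 listed cases (46.7%, beside 59.2% of all genes). IFNGR2 and IFNGR1, the chains of the interferon gamma receptor, stood at 57.23, 53.80 and 48.93 FPKM and at 35.74, 31.42 and 30.29 FPKM. OSMR, the oncostatin M receptor chain, had a mean of 18.6 FPKM, IL7R of 15.2 and IL4R of 13.1. IL10RB was listed as silent with 11, 13 and 17 counts, but shared 38.1% of its exons with an entry that held 6627 counts. None of 14 listed chemokine receptors was expressed, and CCR7, CCR1 and CXCR1 were silent. The highest of them was CXCR2, a receptor for CXCL1 and CXCL8, named after its value was seen, at a mean of 0.40 FPKM.

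The TNF receptor family had 14 of 26 listed members expressed (53.8%, near the 59.2% of all genes). TNFRSF12A, the TWEAK receptor, was at 92.53, 91.80 and 86.33 FPKM, LTBR, the lymphotoxin beta receptor, at 25.6 ± 2.01, TNFRSF1A at 24.8 ± 1.65 and CD40 at 17.6 ± 0.29 (SD, n = 3). CD27, TNFRSF4 and TNFRSF8 of lymphocytes were silent. TLR2 and TLR3, sensors of bacterial lipopeptide and double-stranded RNA, were the expressed Toll-like receptors, at 4.29 and 3.08 FPKM, and TLR7 was silent.

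TGFBR2, a TGF-beta receptor, had a mean of 5.89 FPKM and TGFBR1 of 2.04 FPKM. Of the 14 listed TGF-beta and BMP receptors 7 were expressed, beside 59.2% of all genes. FZD6, a Wnt receptor, led the Notch and Wnt list at 17.9 ± 1.44 FPKM (SD, n = 3), and NOTCH4 was silent. Among nuclear receptors, ligand-controlled transcription factors, 18 of 47 were expressed (38.3%, beside 59.2% of all genes). ESRRA, an orphan receptor of energy metabolism, stood at 27.47, 32.68 and 30.82 FPKM, and NR2F6 at 22.1 ± 2.26. RARG, the retinoic acid receptor of epidermis, had a mean of 8.24 FPKM. ESR1, the estrogen receptor, was silent at 0.04, 0.04 and 0.05 FPKM, or between the classes with the longest transcript.

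Cytokine and growth factor genes were expressed in 58 of 146 listed cases (39.7%, beside 59.2% of all genes) with a median of 0.48 FPKM, but a few were very high. CXCL1, a neutrophil chemoattractant, was read at 29956, 24645 and 21492 counts and 358.94, 305.29 and 235.31 FPKM, rank 108. CXCL8, interleukin-8, was at 262.99, 197.84 and 158.09 FPKM, rank 155. CCL20, the ligand of CCR6, was at 132.22, 105.57 and 76.85 FPKM. In all 3 genes library 1 was highest and library 3 lowest. Without library 1 their means were 270.3, 178 and 91.2 FPKM, and their ranks 117, 186 and 369.

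CXCL10, an interferon-induced ligand of CXCR3, followed at 84.54, 72.73 and 57.57 FPKM, and CXCL2 at 54.87, 51.92 and 39.18 FPKM. Their means without library 1 were 65.2 in place of 71.6 and 45.6 in place of 48.7 FPKM. CXCL1, CXCL2 and CXCL3 are close paralogs, as their upstream sequences also show, so reads may have been split among them. Of 31 listed chemokines 13 were expressed (41.9%, beside 59.2% of all genes). Of these 13, 10 were highest in library 1, beside 24.5% of all expressed genes. CCL3, CXCL6, CCL8, CCL11 and CCL24 were silent. The 3 others, named after their values were seen, were CXCL16 at 30.89, 32.33 and 32.34 FPKM, CX3CL1 at 2.23, 2.26 and 2.12 FPKM and XCL1 at 1.90, 2.35 and 1.79 FPKM.

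Interleukin-1 messages were of the same order as the chemokines. IL1A, an alarmin of keratinocytes, was at 219.91, 177.52 and 150.57 FPKM, rank 185, and IL1B at 142.05, 127.27 and 100.65 FPKM, rank 287. Both were highest in library 1, and without it their means were 164 and 114 FPKM. IL1RN, which encodes the receptor antagonist, stood at 1.73, 1.45 and 1.08 FPKM, and IL18 at 5.59 FPKM. IL33 and IL36RN were silent. IL1RN thus ranked 9544, far under both agonists in every library.

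**Figure D5:**
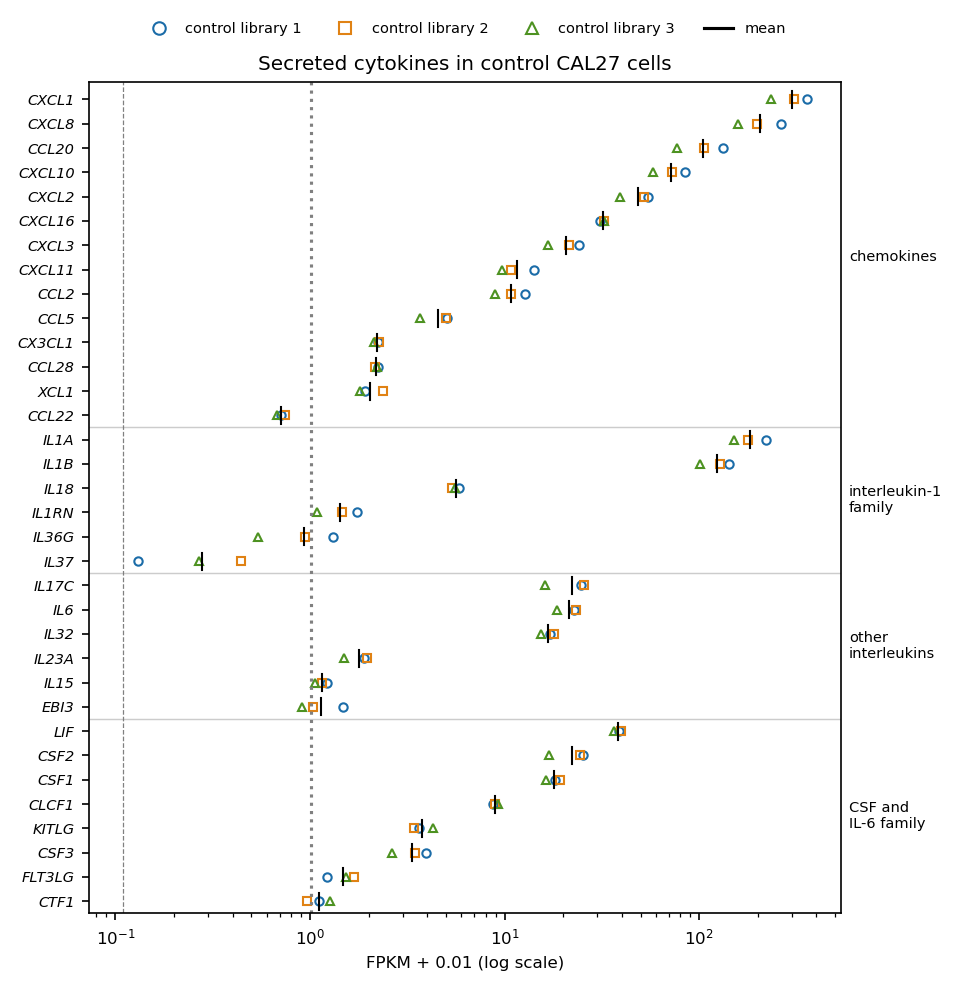
FPKM + 0.01 (x axis, log scale) of chemokines, interleukins and colony stimulating factors in the 3 control libraries, 1 symbol per library with the mean as a bar. The dotted line marks 1 FPKM and the dashed line 0.1 FPKM; for CXCL1, CXCL8, CCL20, IL1A and IL1B the circle of library 1 lies to the right of the other symbols.

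Of the remaining interleukins 5 of 24 were expressed (20.8%, beside 59.2% of all genes). IL17C, an epithelial member of the interleukin-17 family, was at 24.60, 25.59 and 16.21 FPKM, and IL6 at 22.79, 23.17 and 18.69 FPKM. IL32 had a mean of 16.8 FPKM. IL4, IL5 and IL13 of T helper cells were silent. LIF, of the interleukin-6 family, stood at 38.3 ± 1.57 FPKM, CSF2 (GM-CSF) at 22.2 ± 4.58 and CSF1 at 17.9 ± 1.48 (SD, n = 3). TNFSF10, the death ligand TRAIL, was at 28.02, 23.78 and 22.59 FPKM and TNF at 16.65, 19.00 and 12.68 FPKM, while FASLG was silent. IFNE was the sole listed interferon that was expressed, at 2.34 FPKM, and IFNG was silent. Growth factors were led by FGFBP1, a carrier of fibroblast growth factors, at 50.2 ± 4.95 FPKM, VEGFB at 46.9 ± 4.78 and GDF15 at 19.3 ± 1.02 (SD, n = 3), and FGF7 and IGF2, made by stroma, were silent.

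Tumour genes were expressed in 106 of 156 listed cases (67.9%, beside 59.2% of all genes), with a median of 5.58 FPKM beside 2.21 FPKM. Of 38 genes known as drivers of head and neck cancer 32 were expressed (84.2%). CCND1 (chr11:69641087-69654474 in GRCh38), cyclin D1, was at 71.18, 75.37 and 81.04 FPKM, rank 464. Its neighbours in the often amplified 11q13 region were named after their values were seen: CTTN at 53.8 ± 2.27 FPKM and FADD at 39.1 ± 1.43 (SD, n = 3) were high, and ANO1 at a mean of 0.17 FPKM was not expressed. MYC was at 36.36, 35.59 and 37.27 FPKM, rank 1117. RAC1, a GTPase of cell motility, stood at 175 ± 2.92 FPKM.

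CDKN2A (chr9:21967753-21995301 in GRCh38), which encodes p16 and p14ARF and is lost in many such cancers, was read at 3202, 3395 and 3470 counts and 13.45, 14.74 and 13.32 FPKM, rank 2870. Per kilobase of its longest transcript the mean was 41.5 in place of 13.8, rank 1549. Gene-level counts do not tell its transcripts apart. SMAD4 (chr18:51028394-51085045), the common mediator of TGF-beta signals, had 608, 504 and 575 counts and 0.76, 0.65 and 0.65 FPKM, rank 10847, and so lay between the classes in cells whose receptors TGFBR1 and TGFBR2 were expressed. TERT, the catalytic subunit of telomerase, was at 0.45, 0.58 and 0.59 FPKM. LRP1B was silent. RBM24 itself, the gene that the study overexpressed in the other libraries, had 129, 159 and 220 counts here and 0.61, 0.78 and 0.96 FPKM, rank 10654.

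Cell cycle and RAS pathway genes were expressed in 28 of 32 cases (87.5%, beside 59.2% of all genes) and none was silent. CDK4, the partner of cyclin D1, had 87.5 ± 4.52 FPKM, AURKA 61.9 ± 2.27, TOP2A 40.3 ± 3.68 and PLK1 26.7 ± 2.52 (SD, n = 3), the last 3 being genes of mitosis and chromosome segregation. Cancer-testis antigens, normally confined to germ cells, were expressed in 5 of 15 listed cases (33.3%, beside 59.2% of all genes), 8 were silent, and 16 further genes had no entry. MAGEA4 stood at 79.90, 77.24 and 77.74 FPKM, MAGEA3 at 51.62, 56.47 and 54.18 FPKM and MAGEA6 at 48.24, 49.93 and 51.30 FPKM. MAGEA3 and MAGEA6 are near-identical copies, so the split of reads between them is uncertain. MAGEA8, MAGEA11 and SSX1 were silent.

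Surface targets of antibody drugs were expressed in 21 of 28 cases (75.0%, beside 59.2% of all genes). Among the highest were F3 (tissue factor) at 222.24, 206.07 and 221.22 FPKM and LY6E at 136.29, 160.53 and 147.11 FPKM, whereas FAP, GPC3 and SLC34A2 were silent. The antigen-presenting genes B2M and HLA-B were at 317 ± 21.5 and 192 ± 10.3 FPKM (SD, n = 3). HLA genes share much of their sequence, and B2M had a mean of 1004 per kilobase of its longest transcript. CD274, the checkpoint ligand PD-L1, was at 3.56, 3.43 and 3.60 FPKM, rank 7106, under HLA-E at 68.6, CD47 at 43.4, PVR at 14.1 and CD276 at 11.8 FPKM. CD80 was silent.

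Invasion proteases were expressed in 13 of 28 cases (46.4%, beside 59.2% of all genes). PLAU, the urokinase plasminogen activator, was the highest at 300.12, 296.11 and 261.07 FPKM, rank 114, and PLAT, the tissue type, stood at 29.08, 29.18 and 29.39 FPKM. Their ranges lay far apart. TIMP1 and TIMP2, inhibitors of metalloproteinases, had means of 31.6 and 18.4 FPKM. MMP14, the membrane-bound metalloproteinase, was at 14.71, 13.93 and 14.55 FPKM. The gelatinases MMP2 and MMP9 were silent, so the urokinase message stood out while those of the secreted gelatinases were near 0. MMP13, another metalloproteinase of the list, named after its values were seen, was expressed at 6.55, 5.31 and 4.75 FPKM.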

How the data were processed

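RNA of CAL27 cells was extracted with Trizol, treated with DNase and sequenced as 150-nt pairs, per the labels' protocols. The submitters' processing notes name HISAT2 and the build GRCh38. The aligner's version, the counting tool, the annotation and the use of strand are not given in the sources used here. Raw counts by the authors fill the deposited count table (32353 genes of all types), and the deposited FPKM table holds the authors' length- and depth-scaled FPKM to 2 decimals (31513 genes). Columns headed NC were read as control plasmid. The 499 protein-coding genes of the count table without FPKM reached at most 9 counts and were classed as silent. The depth of 55139782 to 62156648 counts puts 3 counts at 0.0483 to 0.0544 CPM; no interval is given, since levels are means over libraries.

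Classes, ranks, means and SDs were computed with pandas 2.3.3 in python 3.11.15, and the class calls were checked on simulated counts. The authors' length fits the union of all exons: for 81.2% of 5910 genes it was within 5% of a constant ratio to GENCODE 29 union exons, which lowers genes with long alternative exons. A member sharing at least 10% of its exons on the same strand, or a readthrough entry, with an entry of higher count was marked uncertain, as 20 of 915 listed members were. Opposite strands were not compared, although the use of strand is not given. Genes whose spans overlap on opposite strands, such as KRT8 and KRT18, were therefore not marked, and the number marked may be too low. Gene positions are GENCODE 29 and promoters RefSeq GRCh38.p14. A planned comparison of promoter composition between classes was void, since only 77.6% of the genes had a promoter.

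The 48 lists (1048 genes, 133 without an entry) and the rule for named genes were chosen with earlier results of these data known. The rule took the 20 highest genes, up to 5 highest expressed and up to 5 silent members of each list, all keratins, all expressed receptor tyrosine kinases and a fixed panel of 18 genes. The 9 squamous markers, DSG3 and TRIM29 among them, came from a marker list in the plan of this report, which names no outside source. CXCL3, CXCL5, FOXA2, PMEL, COL1A1 and PDGFRB fall outside the rule, as do the genes marked so in the text, and were chosen after their values were seen. Members without an entry were counted apart from silent ones, narrower than the planned definition. Alternatives covered scaling, thresholds, gene length and leaving out each library.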

Additional observations from a re-analysis of the deposited data

How the results depend on the processing

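No paired analysis was possible because only the control plasmid group was described and no test between groups was run. The count of 10070 expressed protein-coding genes ranged from 8575 (2 FPKM in place of 1) to 12078 (at least 1 CPM), and from 10109 to 10153 when 1 library was left out. The count of 3783 silent genes ranged from 2809 (FPKM rescaled in the manner of TPM) to 4499 (0.2 FPKM in place of 0.1), and from 3858 to 3875 when 1 library was left out. The share held by the 100 most abundant genes was 46.5%, and 42.8% per kilobase of the longest transcript or 28.4% without mitochondrial-encoded genes; leaving out 1 library gave 46.1% to 46.7%. Of the markers of other cells, 3 were expressed; the count was 8 with FPKM rescaled in the manner of TPM, 5 per kilobase of the longest transcript, 2 at 2 FPKM, 9 at 1 CPM, and 3 to 4 with 1 library left out. Counts of expressed lineage, adhesion, receptor, cytokine and tumour genes stayed within 1.5 times under every alternative run. Of 383 named genes, 244 changed rank by more than 1 SD of their ranks over libraries with the longest transcript, 8 with each rescaling and 58 to 63 when 1 library was left out. The rank of an expressed gene moved by a median of 555 places with the longest transcript, beside a median range of 242 places between libraries. The longest-transcript measure and the removal of genes that share exons (9743 expressed genes left) were chosen after seeing the data. Depth limits silent genes: VIM rests on 10 to 20 counts a library, and PTPRC on 0 to 3.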

Other observations

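Some levels reflect which of 2 overlapping entries received the reads. ALDOA, a glycolytic aldolase that is abundant in most cells, was listed at a mean of 5.88 FPKM, while an entry that shares 42.3% of its exons held 395078 counts over the 3 libraries. RPS10, a ribosomal protein, was listed at 3.80 FPKM, beside the readthrough entry RPS10-NUDT3 with 153689 counts. RPL17 at 6.55 FPKM stood beside RPL17-C18orf32 with 117758 counts, and LDHB at 20.5 FPKM beside an entry with 153787 counts. CD68, a macrophage gene, had 49, 83 and 79 counts beside an entry with 8627 counts that covers 81.7% of its exons. Of 17019 protein-coding genes, 849 were marked in this way, with overlaps on opposite strands not compared.

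Among the genes with the widest range between libraries were secreted or inflammatory genes that no list held, named after their values were seen. PI3, the elastase inhibitor elafin, was at 56.57, 42.01 and 37.43 FPKM, UBD, the ubiquitin-like FAT10, at 38.96, 31.48 and 26.22 FPKM, and PTX3, a secreted pentraxin, at 50.63, 50.64 and 34.52 FPKM. C15orf48, a small mitochondrial protein, was at 75.06, 54.56 and 42.03 FPKM. The 5 expressed genes with a range of at least 2 times were H2BC13, RP11-101E3.5, H2AC14, BCL2A1 and BEST1. RP11-101E3.5 was marked uncertain, since it shared 75.1% of its exons with NUP188, which held 19743 counts. The span of BEST1 overlaps that of FTH1 on the opposite strand, and whether reads of FTH1 were counted for it was not tested. BCL2A1, an anti-apoptotic gene, was at 6.23, 4.88 and 3.09 FPKM, and BEST1 at 4.16, 2.36 and 2.07 FPKM.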
